A study of Mus musculus with 4 samples.

Results

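Cytosolic ribosomal protein genes were examined in adipocytes isolated from perigonadal white fat, the visceral depot beside the reproductive organs. They were chosen by symbol alone: a row was taken when its whole symbol read Rpl or Rps followed by a number, with an optional letter and digit, or named one of the stalk genes Rplp0, Rplp1 and Rplp2. The rule found 88 genes among the 55487 of the table, 53 named for the large ribosomal subunit and 35 for the small. Of these, 76 are the canonical genes (46 large, 30 small) and 12 are paralogs or copies carrying a ribosomal protein symbol, of which 6 are annotated as processed pseudogenes. Genes of the ribosome whose symbols have another form, such as Rpsa, Fau and Rack1, and the rows for pseudogenes ending in -ps stayed outside the rule.

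The study sequenced bulk RNA from male mice fed a standard diet, with 2 libraries of genotype CKO (X7055 and X7059, called replicates 1 and 2) and 2 of control littermates labelled WT (X7056 and X7058, replicates 1 and 2). The series is titled for BLIMP1, the repressor encoded by Prdm1, and for macrophages; the sources used here give neither the alleles and promoter behind CKO nor the age of the mice. The question put to the data is how far genotype separates the isolated adipocytes of littermates. Nothing says that the libraries came from separate animals, and p-values therefore speak only of the spread among the libraries, which may be technical.

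A ribosome is built from a small subunit, which reads the messenger RNA, and a large subunit, which joins the amino acids. Most proteins of these subunits are needed in about equal amounts, and their messenger RNAs are among the most abundant of a cell. Most begin with a C followed by a run of pyrimidines, the terminal oligopyrimidine or TOP, through which mTORC1 and the RNA-binding protein LARP1 control their translation. Cells that grow and divide carry more ribosomes than resting cells. In fat tissue, macrophages and other stromal cells surround adipocytes whose volume is mostly lipid.

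The letters at the annotated starts were searched for this run. The RefSeq table of GRCm38.p6 gave promoters for 56 canonical genes. Of these genes, 13 (23.2%) had a C at an annotated start followed by at least 4 bases that were each C or T. Bases were read on the strand of the gene, and a gene with several annotated starts was counted if any of them had the run. The same search found 813 of 27025 genes (3.0%). Allowing the run to begin up to 5 bases to either side raised these shares of genes to 48.2% and 21.2%. Counted by start, the run stood at 13 of 66 canonical starts (19.7%) and 823 of all 32851 starts (2.5%). By gene, 7 of 34 large subunit genes and 6 of 22 small subunit genes had a run at the start. Mitochondrial ribosomal proteins serve a separate ribosome inside mitochondria. Of their genes, 0 of 69 had a run at the start and 17 of 69 (24.6%) within 5 bases. The absence of a run says only that these letters are not at the annotated start.

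The first 6 sequences below belong to the genes with the most reads that have a promoter in the table, shown because these starts belong to the most abundant members. Each runs 5′ to 3′ on the strand of the gene, with the last 15 bases from the annotated start onward. Capitals mark a pyrimidine stretch led by a C within 5 bases of the start and followed by at least 4 more pyrimidines. Of several such C, the one nearest the start was taken, so pyrimidines directly before it stay in lower case. Where a gene had several annotated starts, one with a run at the start was preferred, then one with a run within 5 bases. Only after that was the start nearest to the annotated beginning of the gene taken.
Rpl4 (chr9:64173372-64173401, plus strand): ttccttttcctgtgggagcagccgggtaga
Rplp0 (chr5:115559452-115559481, plus strand): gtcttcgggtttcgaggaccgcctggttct
Rps3 (chr7:99483695-99483724, minus strand): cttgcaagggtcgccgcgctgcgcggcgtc
Rps9 (chr7:3704026-3704055, plus strand): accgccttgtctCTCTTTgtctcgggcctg
Rps27l (chr9:66946071-66946100, plus strand): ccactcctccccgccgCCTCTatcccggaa
Rps19 (chr7:24884577-24884606, plus strand): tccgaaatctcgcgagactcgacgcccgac

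A further 5 were picked after their values were seen, because the run stands at or near the start: Rps26 had the smallest p, Rps6 and Rplp2 varied little between libraries, Rpl14 was among the genes of smallest p, and Rpl35a shows a long run at the start.
Rps26 (chr10:128626492-128626521, minus strand): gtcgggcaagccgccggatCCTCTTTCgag
Rpl14 (chr9:120571502-120571531, plus strand): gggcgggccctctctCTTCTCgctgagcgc
Rpl35a (chr16:33056467-33056496, plus strand): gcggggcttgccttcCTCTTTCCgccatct
Rps6 (chr4:86857353-86857382, minus strand): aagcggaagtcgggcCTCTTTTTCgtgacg
Rplp2 (chr7:141447636-141447665, plus strand): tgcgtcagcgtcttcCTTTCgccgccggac

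Recovered read totals ran from 24152081 to 26742547 per library, and 24246 to 27547 genes had a read. In cell type markers the libraries lay far apart. WT replicate 2 had the highest or lowest sum for macrophage, adipocyte, proliferation, endothelial and red blood cell markers. Fibroblast and preadipocyte markers did not follow this, with summed scaled reads of 9441 and 5264 in CKO and 8422 and 7177 in WT. The summed scaled reads of 10 macrophage markers were 37353 to 83524 for CKO and 172542 to 506229 for WT, with all 10 highest in WT replicate 2. Those of 10 adipocyte markers, which were present throughout as the label requires, were 848539 to 1306005 in CKO and 231900 to 738429 in WT. By mean difference 9 of these 10 were higher in CKO. The other, Lep, was lower, with 13439 and 21437 scaled reads in CKO and 59962 and 26504 in WT. The proliferation genes Mki67, Top2a, Birc5 and Cdk1 summed to 161 to 555 scaled reads in CKO and 1035 to 5553 in WT. Endothelial markers summed to 50323 to 75322 in CKO and 14946 to 41206 in WT, and red blood cell markers to 18879 to 30207 and 3256 to 9082. T cell and B cell markers summed to at most 183 and 190 scaled reads in any library, with Cd8a at 0. In bulk RNA, fewer cells of a type and less RNA per cell cannot be told apart. Reads of Prdm1 numbered 152 and 386 in CKO and 514 and 1135 in WT. The part of the gene that a CKO allele would lack is unknown here, so this level does not check the labels.

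Together the ribosomal protein genes took 0.306% and 0.308% of all reads in CKO replicates 1 and 2 (77311 and 82340 reads), 0.336% in WT replicate 1 (81101 reads) and 0.459% in WT replicate 2 (120001 reads). Both CKO libraries lay below both WT libraries, and the WT libraries differed from each other by more than WT replicate 1 differed from the CKO libraries. The mean share was 0.307% ± 0.0013 for CKO and 0.397% ± 0.0871 for WT (SD, n = 2). An exact two-sided permutation test of 2 against 2 libraries cannot go below p = 0.333, and none was run on this share. The 95% Wilson interval of the share in WT replicate 2 was 0.456% to 0.462% and that in WT replicate 1 was 0.333% to 0.338%; these intervals cover counting error only.

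**Figure D1:**
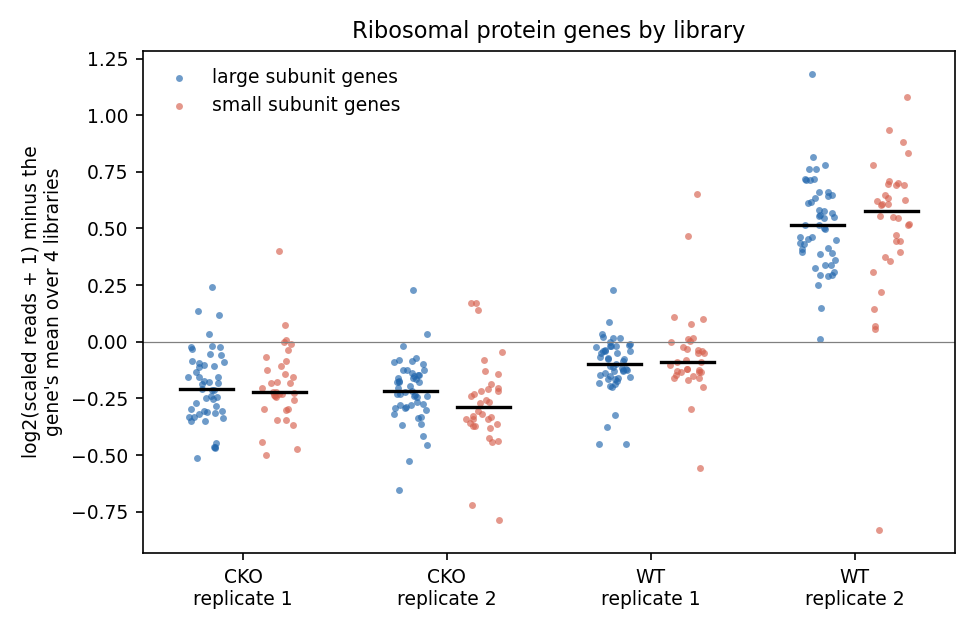
Each point is 1 of 83 ribosomal protein genes in 1 library, as its log2(scaled reads + 1) minus the mean of that gene over the 4 libraries. Black bars are medians over large (blue) or small (red) subunit genes; the medians of WT replicate 2 stand at 0.51 and 0.58, and those of the other 3 libraries lie below 0.

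Gene by gene, 83 of the 88 were tested, 49 large and 34 small, because their mean deposited log2 value was at least 3. All 76 canonical genes were among them. Differences below are CKO minus WT on the log2(scaled reads + 1) scale, which understates the change of low genes. In limma 0 of 83 genes passed an adjusted p under 0.05, as did 0% of all genes tested. At an unadjusted p under 0.05 the counts were 0 lower and 0 higher in CKO, against 7.26% lower and 3.35% higher over all 16871 genes tested. The smallest unadjusted p was 0.0559, for Rps26, and adjusted p-values ran from 0.459 to 0.974.

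The direction was nevertheless shared by nearly all of them. The CKO mean was below the WT mean for 79 of 83 genes (95.2%), where 48.9% of all genes had a negative difference. Both CKO libraries lay below both WT libraries for 57 genes (68.7%), against 26.8% of all genes, and above them for 0, against 23.9%. With the deposited values left unscaled, where the median of all genes was 0.147, the count below was 25, against 17.5% of all genes. The count above was then 1, against 33.5%. The median difference was -0.46, with quartiles of -0.55 and -0.29 and a range from -1.04 to 0.18. Over all genes tested the median was 0.015, with quartiles of -0.41 and 0.49. These genes share the 4 libraries, so the counts describe those libraries and are not a test. Whether groups overlap is judged on scaled reads here and below.

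Most of the shift came with 1 library. WT replicate 2 was the highest of the 4 libraries for 77 of 83 genes (92.8%), which was so for 40% of all genes. The median difference between WT replicate 2 and WT replicate 1 was 0.64 on the log2 scale, or 1.56-fold, against 0.039 over all genes, while the CKO libraries differed from each other by a median of -0.027. Without WT replicate 2 the median difference between the groups was -0.14, with 69 of 83 genes negative, and all genes tested had a median of 0.0078. In that setting both CKO libraries lay below WT replicate 1 for 59 genes (35.2% of all genes) and above it for 8 (34.1% of all genes). Without WT replicate 1 the median was -0.76, and the difference of Rps26 was -1.26. The WT group is then 1 library, so that fit holds no spread among WT libraries and its p-values are not given. WT replicate 2 also had the highest summed macrophage and proliferation markers and the lowest summed adipocyte markers. The part of these in the ribosomal protein values was not tested.

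**Figure D2:**
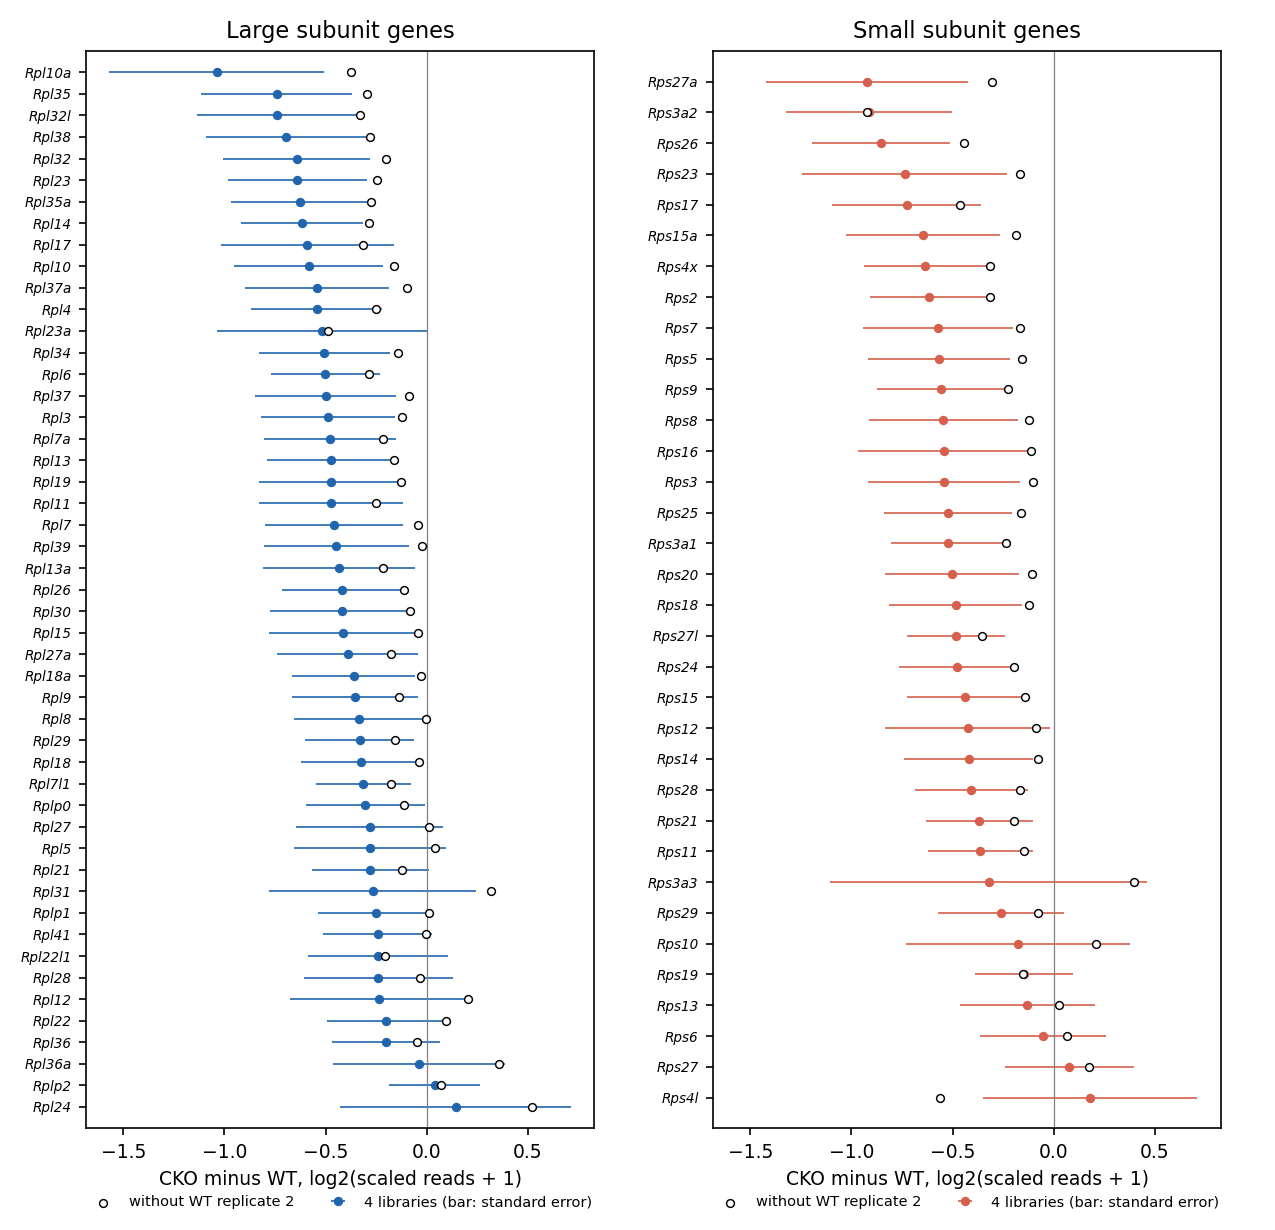
Difference of CKO minus WT for each of 83 ribosomal protein genes on the log2(scaled reads + 1) scale, large subunit on the left and small on the right. Filled points with standard error bars use 4 libraries and open points leave out WT replicate 2; filled points are negative for 79 genes and open points for 69, and the open points lie nearer 0 for most genes.

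The large and small subunits had close medians. The median difference was -0.42 for 49 large subunit genes and -0.49 for 34 small subunit genes, and 47 and 32 of them were negative. The gap between these medians was 0.075, within a range from 0.018 (without CKO replicate 2) to 0.151 (without WT replicate 1) when 1 library was left out. Large subunit genes took 0.170%, 0.172%, 0.183% and 0.250% of reads in CKO replicates 1 and 2 and WT replicates 1 and 2, and small subunit genes 0.136%, 0.136%, 0.153% and 0.209% in the same order. Both subunits were highest in WT replicate 2.

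The ratio of summed large to summed small subunit reads was 1.25 in CKO replicate 1, 1.27 in CKO replicate 2, 1.19 in WT replicate 1 and 1.20 in WT replicate 2. The groups did not overlap, and their means were 1.26 ± 0.016 and 1.20 ± 0.0054 (SD, n = 2), a difference of 0.072 in log2. This gap rested on the stalk genes, which hold many of the large subunit reads. Without Rplp0, Rplp1 and Rplp2 the ratio was 0.970 ± 0.039 in CKO and 0.954 ± 0.031 in WT, a log2 difference of 0.024, and the groups overlapped.

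The stalk genes had differences nearer 0 than the median of all 83. The stalk is the arm of the large subunit that recruits elongation factors; the protein of Rplp0 anchors it and those of Rplp1 and Rplp2 form its acidic tip. Rplp0 had 5838 and 5399 reads in CKO and 5570 and 7155 in WT, a difference of -0.30 (SE 0.30). Rplp1 had 2566 and 2496 reads in CKO and 2306 and 3272 in WT, a difference of -0.25 (SE 0.28), and the groups overlapped for both genes. Rplp2 had 2019 and 1949 reads in CKO and 1735 and 1786 in WT. After scaling it had 1894 ± 182 reads in CKO against 1840 ± 54.0 in WT (SD, n = 2), its difference was 0.04 (SE 0.23), and limma's adjusted p was 0.947. Its range over the libraries, 0.20 on the log2 scale, was the narrowest of the canonical genes, where the median range was 0.88.

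The gene of smallest p was Rps26, at 128624534 to 128626747 on the minus strand of chromosome 10 in GRCm38. Its protein lines the channel where messenger RNA leaves the small subunit. Rps26 had 644 and 759 reads in CKO replicates 1 and 2, 873 in WT replicate 1 and 1520 in WT replicate 2. Every CKO value was below every WT value, and the WT libraries were far apart. After scaling, the CKO mean was 666 ± 29.95 reads and the WT mean 1252 ± 489 (SD, n = 2), the difference was -0.85 (SE 0.34), and limma's adjusted p was 0.459. Without WT replicate 2 the difference was -0.44.

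The next canonical genes by p had the same form. Rps2, whose protein sits at the entrance of the messenger RNA channel, had 1265 and 1279 reads in CKO and 1450 and 2178 in WT (difference -0.62, SE 0.29). Rps4x, the X-linked gene of a small subunit protein, had 654 and 702 reads in CKO and 774 and 1189 in WT (-0.63, SE 0.30). Rpl14, of the large subunit, had 1136 and 1154 reads in CKO and 1281 and 1997 in WT (-0.62, SE 0.30). In all of these the CKO libraries were close to each other, WT replicate 1 was somewhat above them and WT replicate 2 was highest, with limma adjusted p-values of 0.459, 0.459 and 0.464. Without WT replicate 2 their differences were nearer 0, as the plot of differences shows.

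The canonical genes of widest range were Rpl10a, Rps27a, Rps26 and Rps23. Rpl10a, which encodes the protein of the other stalk of the large subunit (L1), had 114 and 125 reads in CKO and 142 and 354 in WT, the largest difference of all (-1.04, SE 0.53). Rps27a, which encodes a small subunit protein fused to ubiquitin, had 139 and 162 reads in CKO and 170 and 397 in WT (-0.92, SE 0.50). Rps23, whose protein reaches the decoding centre, had 95 and 95 reads in CKO and 98 and 214 in WT (-0.74, SE 0.51). Each of these was far higher in WT replicate 2 than in the other 3 libraries, among which WT replicate 1 was highest. Without WT replicate 2 the differences were -0.37 for Rpl10a, -0.30 for Rps27a and -0.17 for Rps23.

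At the other end stood genes with a narrow range. Rps6, whose protein is the classical target of the S6 kinases downstream of mTORC1, had 203 and 219 reads in CKO and 185 and 215 in WT (-0.05, SE 0.31). Its sign turned with the scaling: the difference was 0.080 with the deposited values left unscaled and 0.031 when scaled by total reads. Rps19, a gene mutated in Diamond-Blackfan anaemia, had 3057 and 2763 reads in CKO and 2961 and 2903 in WT (-0.15, SE 0.24). Rps27 had 187 and 239 reads in CKO and 172 and 194 in WT (0.08, SE 0.32). The groups overlapped for these 3 genes, which together with Rplp2 had the narrowest ranges.

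Only 4 of 83 genes had a positive difference, and none of them separated the groups. They were Rplp2, Rps27, Rpl24 and Rps4l. Rpl24, whose protein helps bridge the subunits, had 14 and 12 reads in CKO and 8 and 14 in WT (0.14, SE 0.57), too few to show a change of this size. Rps4l, annotated as a transcribed processed pseudogene, had 719 and 889 reads in CKO, 1084 in WT replicate 1 and 382 in WT replicate 2. It was the 1 gene of the 83 that was lowest in WT replicate 2, and its difference of 0.18 (SE 0.53) was -0.56 without that library. It lies at 148354656 to 148355598 on the plus strand of chromosome 6, inside Tmtc1 on the opposite strand, which had 253, 492, 198 and 74 reads in the same order of libraries. The sources do not say whether counting used strand, so reads of the pair cannot be told apart.

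Among the paralogs, 7 of 12 were tested, with a median difference of -0.32. Rps27l, a paralog of Rps27 known as a target of p53, had 2573 and 2793 reads in CKO and 3139 and 3716 in WT (-0.48, SE 0.24). Its CKO libraries lay below its WT libraries, and its level was 3760 scaled reads per kilobase of exon against 188 for Rps27. That order goes with shared sequence: every 50-base window of the Rps27 coding sequence also occurs in a transcript of another gene, against 49.0% of the windows of Rps27l. Rpl22 had 780 and 807 reads in CKO and 682 and 1014 in WT (-0.20, SE 0.29), and its paralog Rpl22l1 had 249 and 448 in CKO and 354 and 365 in WT (-0.24, SE 0.35). The groups overlapped in both. Rpl7l1 had 2008 and 2213 reads in CKO and 2182 and 2613 in WT (-0.31, SE 0.24), beside 1130 and 1223 in CKO and 1111 and 1954 in WT for Rpl7 (-0.46, SE 0.34).

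**Figure D3:**
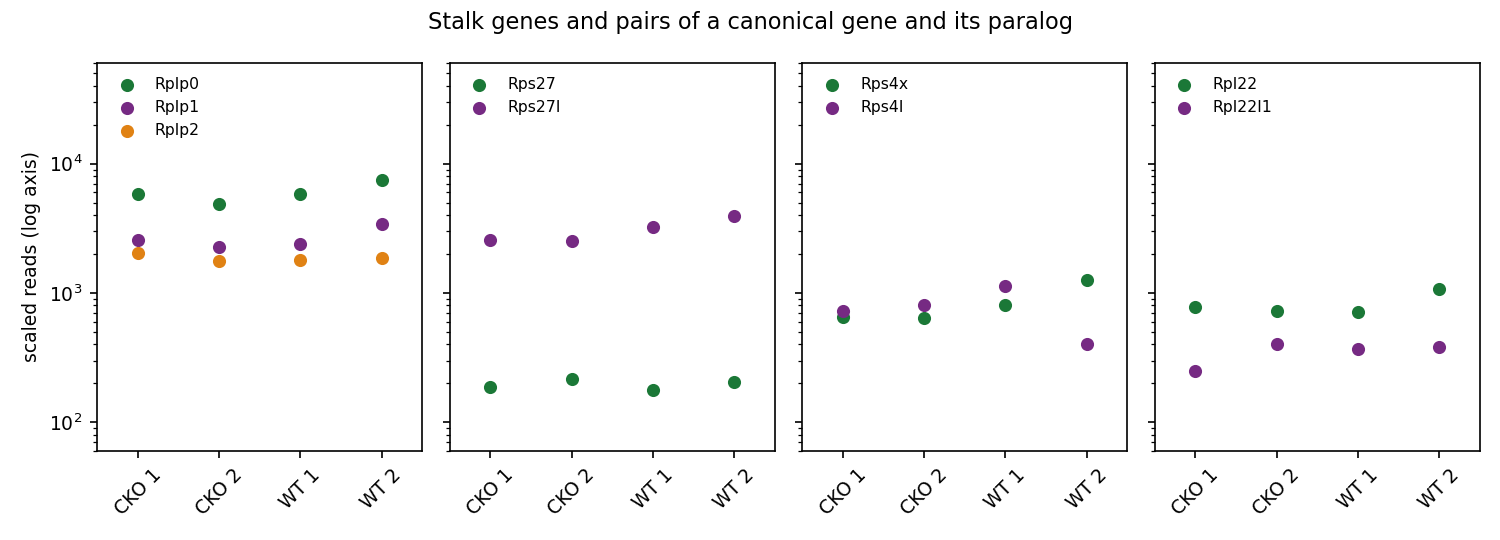
Scaled reads (log axis) in each of 4 libraries for the stalk genes and for 3 canonical genes beside their paralogs. Rplp2 is nearly level across libraries, Rps27l lies above Rps27 in every library, and Rps4l is lowest in WT replicate 2 where Rps4x is highest.

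Some copies annotated as processed pseudogenes also had reads. Rps3a2, a processed pseudogene on chromosome 14 (88123017 to 88123808), had 105 and 73 reads in CKO and 153 and 149 in WT (-0.91, SE 0.41, limma adjusted p 0.459), with no overlap between the groups; 90.2% of its windows occur in other transcripts. Its parent Rps3a1 had 1067 and 1251 reads in CKO and 1249 and 1829 in WT (-0.52, SE 0.28). Rpl32l, a processed pseudogene inside Map7 on the same strand, had 161 and 198 reads in CKO and 206 and 360 in WT (-0.74, SE 0.40). Rps3a3, inside Pde4d, had 11 and 5 reads in CKO and 5 and 15 in WT. These copies can take or lose reads of their parents, so their values are uncertain.

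The 5 genes that were not tested had few or no reads. Rpl3l, the paralog of Rpl3 known from muscle, had 5 and 4 reads in CKO and 1 and 2 in WT. Rpl10l and Rpl39l, known from testis, had 3, 2, 1 and 0 reads and 6, 1, 3 and 3 reads in CKO replicates 1 and 2 and WT replicates 1 and 2. Rpl6l and Rps12l1 had 0 reads in every library. Their canonical partners were all expressed: Rpl3 had 594 to 986 reads, Rpl10 345 to 662, Rpl39 625 to 1111, Rpl6 617 to 920 and Rps12 119 to 191.

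Levels within the canonical set spanned a wide range although most of their proteins are needed in about equal amounts. Per kilobase of annotated exon, Rplp1 had 5344 scaled reads, Rplp0 3624, Rpl32 3481 and Rpl4 3454. Rpl32 had 2489 and 2865 reads in CKO and 2821 and 5127 in WT (-0.64, SE 0.36), and Rpl4 had 5402 and 6341 in CKO and 6398 and 9446 in WT (-0.54, SE 0.32). The lowest were Rps10 at 10.3 scaled reads per kilobase, Rpl24 at 11.6, Rpl23a at 35.5 and Rpl12 at 41.0. Rps10 had 18 and 29 reads in CKO and 18 and 31 in WT, Rpl23a 32 and 20 in CKO and 33 and 34 in WT, and Rpl12 146 and 131 in CKO and 110 and 200 in WT. The highest level was 517 times the lowest, and the 90th percentile 34.1 times the 10th.

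Low level went with shared sequence. Of the 76 canonical genes, 27 had every 50-base window of their coding sequence also in the transcript of another gene, and their median level was 112 scaled reads per kilobase. The 10 genes with under 50% of their windows shared had a median of 2322, and the 39 between had 352. Levels of these groups overlapped, from 35.5 to 2329 with every window shared and from 282 to 3481 with under 50% shared. Spearman's rho between the percentage of shared windows and the level was -0.70 across these 76 genes, which share libraries and are not independent replicates. It was -0.68 in 46 large and -0.73 in 30 small subunit genes. The sources used here do not say how reads that match several genes were counted.

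**Figure D4:**
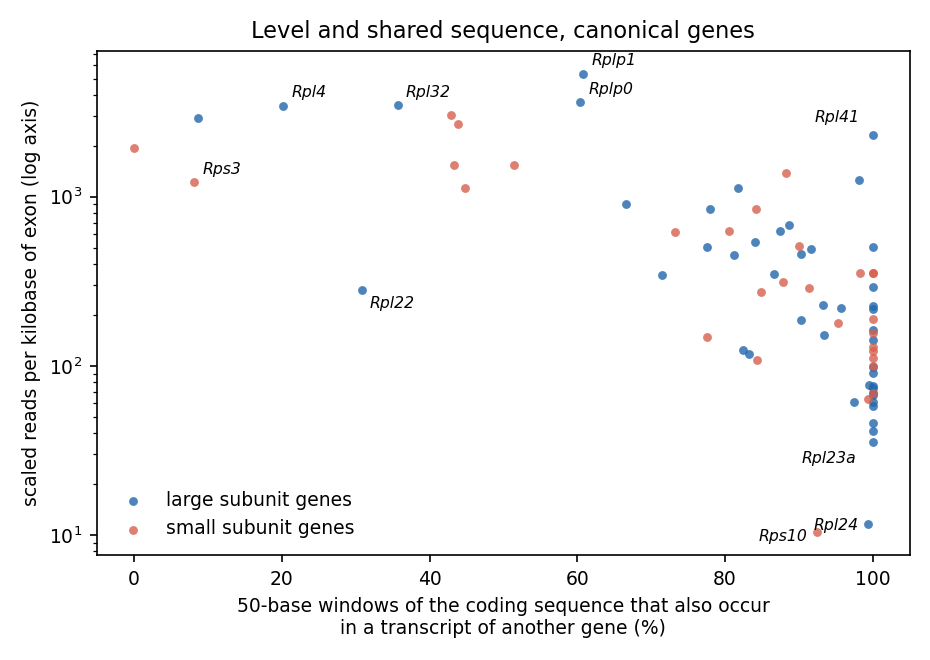
Scaled reads per kilobase of exon (log axis) against the percentage of 50-base coding windows that also occur in a transcript of another gene, for 46 large (blue) and 30 small (red) canonical subunit genes. Genes with under 50% of their windows shared have a median of 2322, and those with every window shared have a median of 112.

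Shared windows lay in 1064 annotated pseudogenes, among other genes. These pseudogenes held 30985 and 33066 reads in CKO and 32233 and 50826 in WT. WT replicate 2 was highest in these rows as well. Their reads equalled 0.401 and 0.402 of the ribosomal protein reads in CKO and 0.397 and 0.424 in WT. The size of the difference between the groups did not follow the sharing closely. Its median was -0.41 in the genes with every window shared, -0.49 in those with under 50% shared and -0.48 in those between. Spearman's rho with the percentage shared was 0.14. Both CKO libraries lay below both WT libraries for 9 of the 10 genes with under 50% of windows shared. The same held for 28 of the 39 between and 16 of the 27 with every window shared, against 26.8% of all genes. This count was thus relatively larger where fewer windows were shared, an order that was not tested.

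Overlap with other genes is a further limit where strand is unknown. Besides snoRNA genes, 34 of the 88 genes overlap another annotated gene, among them Rpl12 (Lrsam1), Rpl32 (Cand2), Rps2 (Snhg9), Rpl3 (Syngr1), Rpl23a (Tlcd1) and Rps27a (Clhc1), each on the opposite strand. Their values are uncertain to an extent that differs between pairs. Lrsam1 had 431 to 500 reads and Tlcd1 320 to 1028, more than Rpl12 and Rpl23a in every library. Clhc1, Snhg9 and Cand2 had at most 7, 86 and 128 reads in any library, far fewer than Rps27a, Rps2 and Rpl32. Syngr1 had 62 and 203 reads in CKO and 389 and 2106 in WT, so in WT replicate 2 it had more reads than Rpl3 (986). The canonical genes that overlap another gene had a median difference of -0.42 (28 genes), and the other 48 had -0.48.

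The difference was also set beside properties of the genes that the symbols do not fix. Canonical genes with a TOP run at the annotated start had a median difference of -0.41 (13 genes, 11 negative), and those with a promoter but no run at the start had -0.47 (43 genes, 42 negative). Within the bounds of 29 canonical genes, on the same strand, lie 55 annotated snoRNA genes, small RNAs that guide the modification of ribosomal RNA. The median difference was -0.49 for these hosts and -0.42 for the other 47 genes. The snoRNA genes themselves had 61, 54, 36 and 64 reads in all, and 30 of them had 0 in every library. Their level was therefore not measurable in these libraries, for a reason that was not tested.

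Genes that work with the ribosome but fall outside the rule were set beside these values. Rack1, a scaffold on the head of the small subunit, had 2687 and 3016 reads in CKO and 3277 and 5410 in WT (-0.70, SE 0.33). Of 20 translation factors and other genes known for a TOP start, 17 were negative (median -0.31) and 18 were highest in WT replicate 2. Pabpc1, the cytoplasmic poly(A)-binding protein, had 2935 and 2977 reads in CKO and 3507 and 4730 in WT (-0.60), while the snoRNA host Snhg8 went the other way with 209 and 221 against 138 and 109 (0.67). In the list of genes known for a TOP start limma called 0 genes by adjusted p, and 0 at an unadjusted p under 0.05. Over all genes the unadjusted shares were 7.26% lower and 3.35% higher.

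For genes that build ribosomes the median lay nearer 0. Of 35 biogenesis genes 26 were negative (median -0.20) and 24 were highest in WT replicate 2. At an unadjusted p under 0.05 in limma, 1 gene was lower and 0 higher, against 7.26% and 3.35% of all genes. That gene was Nhp2, a core protein of the H/ACA particles that pseudouridylate ribosomal RNA, with 880 and 829 reads in CKO and 1152 and 1622 in WT (-0.81, limma adjusted p 0.459). Npm1, the nucleolar chaperone of assembling subunits, had a difference of -0.72, and Dkc1, the pseudouridine synthase of the same particles as Nhp2, 0.42. For RNA polymerase I, which transcribes ribosomal RNA, and its factors 12 of 20 genes were negative with a median of -0.10.

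For the regulators and the mitochondrial ribosome the medians were close to that of all genes. Of 19 genes for mTORC1 and the control of TOP messages 10 were negative (median -0.02). At an unadjusted p under 0.05 in limma, 2 of them were lower and 0 higher, against 7.26% and 3.35% of all genes. Sesn1, a leucine sensor that restrains mTORC1, had 1060 and 1088 reads in CKO and 1407 and 2788 in WT (-1.02). Rragd, a Rag GTPase, had 27 and 38 in CKO and 55 and 121 in WT (-1.45). In the other direction the genes of smallest p in limma were Mlst8 (0.39) and Eif4ebp2 (0.33). Of 77 tested genes for mitochondrial ribosomal proteins 41 were negative and 36 positive (median -0.02), and 30 were highest in WT replicate 2. The difference between these lists and the cytosolic genes was not tested.

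**Figure D5:**
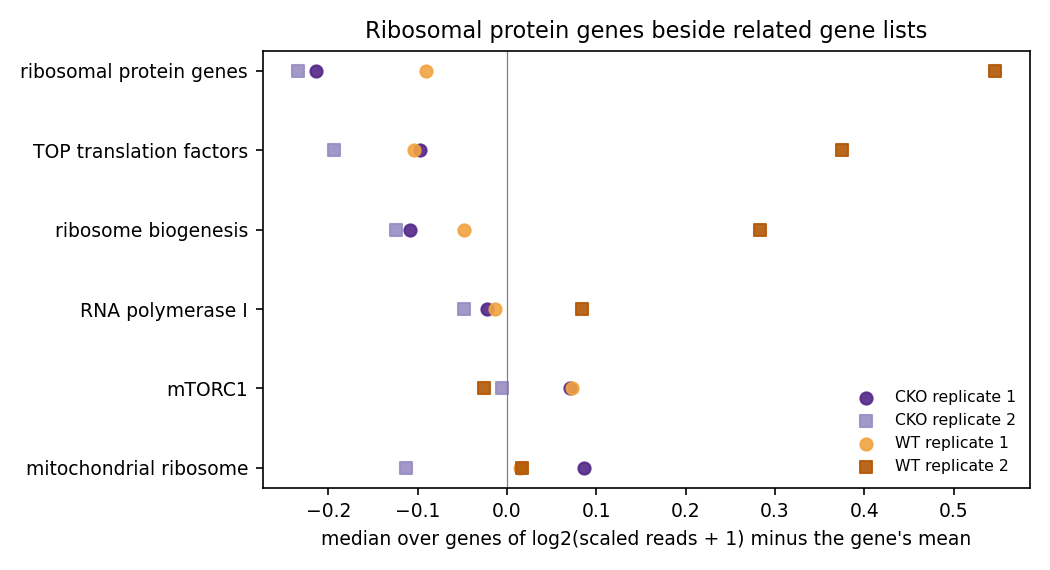
For each list, the median over genes of log2(scaled reads + 1) minus the mean of the gene, in each of the 4 libraries. WT replicate 2 (dark squares) stands at 0.55 for the ribosomal protein genes and 0.016 for mitochondrial ribosomal protein genes.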

How the data were processed

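Bulk RNA from the adipocyte fraction was sequenced in 4 libraries. Per the labels' protocols, TRIzol and RNeasy columns were used for RNA and a NovaSeq instrument for sequencing. Per the submitters' processing notes, the tools were FastQC and STAR 2.7.5c and the build was GRCm38.p6. How reads were counted, and with which annotation and strand, is not stated in these sources. The authors deposited log2 values, which were whole reads plus 1 without scaling, since undoing the log and taking off 1 gave whole numbers within 0.01. These reads were divided by median-ratio size factors and taken to log2 with a pseudocount of 1. The 16871 genes whose deposited log2 values averaged 3 or more were fitted with limma 3.58.1 in R 4.3.3 (trend, two-sided, group only, 2 residual and 2.92 prior degrees of freedom) with Benjamini-Hochberg adjustment over all of them; 0 columns of values were left unused. The fit was tested on simulated reads with changes larger than that of any tested ribosomal protein gene. That test does not show what the fit can detect at the size of differences seen here.

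The members, lists and rules were chosen with earlier results of these data known. Genes were named by rule: the 6 of smallest p in each direction (4 were positive), the 4 highest and 4 lowest canonical genes per kilobase, the stalk genes, paralogs with their partners, the 4 of widest and 4 of narrowest range, and, in the other lists, some of the 2 of smallest p each way; 1 such list is not reported here. Coordinates and exons are from GENCODE M21 (GRCm38, 1-based), which matched 55094 rows (99.3%). Where no coding sequence is annotated, windows were taken from the whole transcript. Alternatives were other scalings, filters, pseudocounts, eBayes settings and weights, -ps rows added, paralogs removed and each library left out. The labels name no batch.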

Additional observations from a re-analysis of the deposited data

How the results depend on the processing

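The count of 0 genes at an adjusted p under 0.05 ranged from 0 to 1 when each library was left out, the 1 (Rps26) without WT replicate 1, and was 0 under the other settings run. At an unadjusted p under 0.05 the lower count was 1 with library weights and ranged from 0 to 42, and the higher count from 0 to 1, when each library was left out. Over all genes 7.37% were lower with library weights, and 17% were lower and 17% higher without WT replicate 1. The median difference was -0.33 unscaled, -0.37 scaled by total reads and -0.39 with quantile normalisation, where all genes shifted to 0.147, 0.099 and 0.064. The gap between large and small subunit medians ranged from 0.018 to 0.151 over left-out libraries. The log2 difference of the summed ratio was 0.024 without the stalk genes, and both CKO libraries lay below both WT libraries for 25 genes with values left unscaled; these alternatives were chosen after seeing the data. Unscaled, 17.5% of all genes lay so and 33.5% the other way. Rps6 changed sign unscaled (0.080) and scaled by total reads of every gene (0.031) or of other genes (0.030). Among the genes named by rule, the sign of 11 turned when a library was left out (others turned too, with 69 of 83 negative without WT replicate 2), with these lowest and highest differences: Rpl12 -0.67 to 0.20, Rpl22 -0.50 to 0.094, Rpl22l1 -0.59 to 0.11, Rpl24 -0.24 to 0.52, Rplp1 -0.51 to 0.0098, Rplp2 -0.059 to 0.14, Rps10 -0.56 to 0.21, Rps27 -0.027 to 0.18, Rps3a3 -1.04 to 0.40, Rps4l -0.56 to 0.92 and Rps6 -0.17 to 0.06. No paired analysis was possible because the labels carry no replicate number that the groups share; the numbers used here follow the order of the records. Depth limited the tested genes with under 50 reads in every library, Rps10, Rpl24, Rpl23a and Rps3a3, whose standard errors were 0.52 to 0.78.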
